A study of Rattus norvegicus with 19 samples.

Results

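The genes of the pyruvate dehydrogenase complex and of the enzymes that switch it on and off were followed in rat renal cortex. They were 10 genes: the kinases Pdk1, Pdk2, Pdk3 and Pdk4, the phosphatases Pdp1 and Pdp2, and the subunits Pdha1, Pdhb, Dlat and Dld. Members were taken by the gene name that the array files give each probe, which found 18 of the 45598 probes, and all 18 passed the filter on dim probes. They gave 10 of the 24217 genes tested. Each of 19 male Crl:CD (SD) rats gave 1 Agilent array hybridised in 1 colour (Cy3) with total RNA of the cortex. In the Sham group 5 rats were injected with vehicle. In the DKD group 7 rats were made diabetic by an intravenous injection of 65 mg/kg of streptozotocin, a poison of pancreatic beta cells. In the DKD+enarodustat group 7 rats had the same injection and then ate 0.01% (w/w) enarodustat in their feed. Enarodustat blocks prolyl hydroxylases, the oxygen sensors that send hypoxia-inducible factor (HIF) to be degraded. The injection came 7 days before the rats were grouped and the kidneys were taken 14 days after grouping. Of 19 rats injected with streptozotocin 14 were used, split so that glucose and weight were alike in both diabetic groups. The model is therefore diabetes from loss of beta cells, and no group compared here received enarodustat without streptozotocin.

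The complex sits in the mitochondrial matrix and turns pyruvate from glycolysis into acetyl-CoA, the entry to the tricarboxylic acid cycle. Its kinases phosphorylate the alpha subunit of the first enzyme and shut the complex, and its phosphatases reopen it. In fasting and diabetes PDK4 is known to rise in several tissues, so that fatty acids are burned and pyruvate is spared, while PDK1 is a known HIF target that holds pyruvate back from the mitochondria in low oxygen. The renal proximal tubule runs mainly on fatty acids and makes glucose from lactate, so pyruvate there can also be carboxylated or reduced.

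Levels are log2 of the processed intensity minus the 75th percentile of that array, so a value of 0 is the level that 75% of the spots lie below, and differences are on the same log2 scale. A gene was called where limma's adjusted p, over all genes tested, was below 0.05. A level is not compared between genes, since probes differ in how brightly they bind. Of 9 proximal tubule markers 9 were above background in every group. Their linear levels were summed as multiples of each array's 75th percentile. The sums were 395 to 441 in Sham, 315 to 354 in DKD and 295 to 378 in DKD+enarodustat. All 5 thick ascending limb and all 6 collecting duct markers were above background in every group too. Marker detection therefore does not tell cortex from whole kidney, and the cortex label was not tested. In bulk tissue, fewer cells of a type and less RNA per cell cannot be told apart. All groups were present on each of the 3 slides used, but a group kept to a row of the slide: row 1 held all 5 Sham arrays and 5 DKD arrays, and row 2 held all 7 treated arrays and the other 2 DKD arrays (replicates 2 and 4). For the members, values within a row or with row as a covariate are therefore given beside the results that rest on it, and for the gene lists the calls kept with row as a covariate are given.

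Exon-spanning probes of 4 genes are shown because their rn4 positions, per the file headers, span more than their own 60 bases, so that they read spliced RNA across an intron, and because the results turn on the genes they measure. The Pdk1 probe lies at chr3:54302974-54303274 (plus strand), the Pdk4 probe at chr4:30239150-30241038 (minus strand), the Pdha1 probe at chrX:55910927-55911605 (plus strand) and the Pdhb probe at chr15:18740251-18740642 (plus strand). Each is written 5′ to 3′ in lower case.
Pdk1: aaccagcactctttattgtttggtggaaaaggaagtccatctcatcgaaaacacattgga
Pdk4: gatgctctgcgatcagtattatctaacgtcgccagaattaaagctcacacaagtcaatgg
Pdha1: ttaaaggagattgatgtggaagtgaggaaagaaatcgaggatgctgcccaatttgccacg
Pdhb: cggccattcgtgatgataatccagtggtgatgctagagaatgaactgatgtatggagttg

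Pdk4 and Pdk1 were the members that rose, Pdk4 in diabetes and Pdk1 with enarodustat, so the DNA before their starts is shown next. A RefSeq table of assembly GRCr8 held 300 bases around the start (250 before it) for 8 members. The bases outside the annotated gene are printed 5′ to 3′, with each HIF core motif (ACGTG or GCGTG, on either strand) in capitals. The Pdk1 stretch is chr3:77113264-77113459 (plus strand) and the Pdk4 stretch is chr4:34568330-34568579 (minus strand).
Pdk1: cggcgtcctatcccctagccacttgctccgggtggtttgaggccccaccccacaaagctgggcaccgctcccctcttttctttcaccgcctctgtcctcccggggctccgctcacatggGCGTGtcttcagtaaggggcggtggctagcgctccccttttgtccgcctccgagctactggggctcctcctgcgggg
Pdk4: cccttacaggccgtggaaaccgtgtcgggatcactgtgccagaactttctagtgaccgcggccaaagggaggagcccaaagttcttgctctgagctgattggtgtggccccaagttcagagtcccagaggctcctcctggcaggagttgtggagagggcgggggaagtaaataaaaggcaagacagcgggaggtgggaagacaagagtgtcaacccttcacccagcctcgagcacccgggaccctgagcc
The 300-base Pdk1 window held 4 cores, GCGTG starting 131 and 54 bases before the start and ACGTG 21 and 30 bases after it, of which the first falls in the printed stretch. The Pdk4 window held no core, no nuclear receptor half-site AGGTCA and no FOXO site GTAAACA. Either core was in 7 of the 8 members' windows and in 41.6% of 33469 RefSeq promoters of the same length, ACGTG in 19.3% and GCGTG in 29.7%, and motifs were searched on both strands with overlaps counted. AGGTCA was in 16.2% of them and GTAAACA in 3.78%. Pdhb and Dlat held an AGGTCA each and Pdhb held a GTAAACA. A match in these letters is a description and was not tested as a binding site.

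In diabetes the kinase and phosphatase genes moved in both directions. Pdk4 rose, Pdk3 and the phosphatase Pdp2 fell, and the 4 subunit genes did not pass the test in DKD against Sham by their brightest probes. So 3 of 10 members were called, 1 higher and 2 lower, where 17.1% of all 24217 genes were called (8.02% higher and 9.07% lower). The median difference of the members was -0.14, beside -0.02 over all genes. With enarodustat added, Pdk1 rose and the subunits Pdhb and Dld fell. Again 3 of 10 members were called, where 2.00% of all genes were called (1.07% higher and 0.933% lower), and the members' median difference was -0.07 beside -0.02 over all genes.

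**Figure D1:**
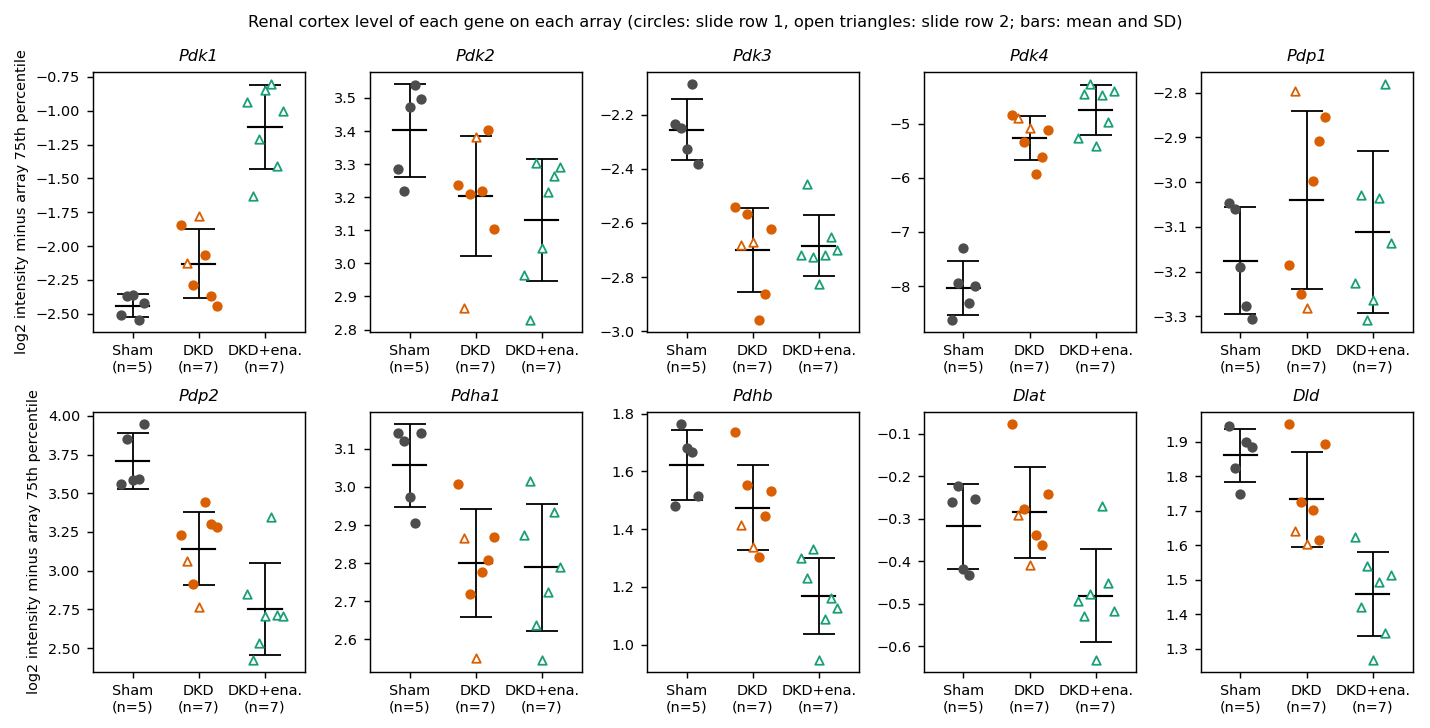
Level of each of the 10 genes on each array (log2 processed intensity minus the array's 75th percentile), by group, with the mean and SD. Circles are arrays in slide row 1 and open triangles arrays in row 2. All 7 DKD arrays of Pdk4 lie above all 5 Sham arrays, and all 7 DKD+enarodustat arrays of Pdk1 lie above all 7 DKD arrays.

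Pdk4 encodes the kinase isoform that fasting and diabetes induce in muscle, heart and kidney. Its levels in the 5 Sham arrays were -8.63, -7.94, -7.29, -8.32 and -8.01. Its levels in DKD ran from -5.94 to -4.83 (median -5.11), and in DKD+enarodustat from -5.41 to -4.26 (median -4.46). Every diabetic array, treated or not, lay above every Sham array, while the 2 diabetic groups overlapped. The probe passed the filter on dim probes through the diabetic arrays: it was well above background on 1 of 5 Sham arrays and on all 7 arrays of each diabetic group, with processed intensities of 2.33 to 5.83 in Sham, 16.8 to 33.8 in DKD and 22.9 to 51.3 in DKD+enarodustat. The difference of DKD against Sham was 2.78 ± 0.25 (SE; limma, adjusted p = 1.16e-06; n = 7 and 5). With each Sham array set to no less than the lowest level of any probe well above background on it, Pdk4 was 5.72-fold higher in DKD than in Sham. That floor is lenient: Sham replicates 2 (-7.94) and 5 (-8.01) lay above theirs (-8.33 and -8.53) and were still not well above background. The fold is therefore not a lower bound. With normexp background correction (offset 50) and quantile normalisation the difference was 0.47 (adjusted p = 0.000339), so the direction and the call stood and the size did not. Against Sham, DKD+enarodustat was higher by 3.29 ± 0.25 (limma, adjusted p = 1.04e-07), 8.17-fold with the same floor, and by 0.65 with normexp (adjusted p = 7.93e-06). Between the diabetic groups the difference was 0.52 ± 0.23 (limma, adjusted p = 0.328; 95% interval 0.03 to 1.01) and did not pass the test.

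The DKD mean of Pdk4 lay above the Sham mean on each slide, although slide 3 held 1 Sham array and no fit within a single slide called it. Within row 1 (5 DKD and 5 Sham arrays) it lay above as well (limma over all probes, adjusted p = 0.000444), with 4 of those 5 Sham values not well above background. A limma fit of all 3 groups without the 2 DKD arrays of row 2 gave an adjusted p of 1.85e-05. Adipocyte markers also moved: 3 of 8 tested rose in DKD against Sham, and their summed level was 0.434 to 0.729 in Sham, 0.739 to 14.6 in DKD and 0.770 to 6.12 in DKD+enarodustat. The DKD arrays with the highest adipocyte sums were replicates 4 (14.6) and 2 (11.4), where Pdk4 stood at -5.08 and -4.89. The lowest sums of that group were in replicates 1 (0.739) and 5 (0.844), where Pdk4 stood at -4.83 and -5.94. Of the adipocyte markers, Plin1 and Lep were well above background on no Sham array. They were so on 3 and 4 of the 7 DKD arrays and on 0 and 3 of the 7 DKD+enarodustat arrays. Adipoq, Fabp4, Cfd, Cidec and Lipe were well above background on all 5 Sham arrays, Retn on 3 and Plin4 on 1. Brown fat markers summed to 0.0389 to 0.0712 in Sham and to 0.107 to 0.387 in DKD, and 1 of 2 tested rose. The 1 that rose was Cidea (2.09 ± 0.29; limma, adjusted p = 8.53e-05). Ucp1 did not rise (-0.14, adjusted p = 0.881) and was well above background on 4 of 5 Sham and 3 of 7 DKD arrays. Elovl3 was well above background on 2 Sham arrays and 0 DKD arrays. Striated muscle, another tissue rich in Pdk4, showed sums of 0.110 to 0.237 in Sham and 0.116 to 0.249 in DKD, none of 4 tested changed, and its marker Myh2 was well above background on 0 of 19 arrays. With row as a covariate the DKD against Sham calls of Fabp4, Lep and Cidea were kept and that of Cfd was lost (limma, adjusted p = 0.122). The part of these tissues in the Pdk4 result was not tested.

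Pdk1 encodes the kinase isoform that HIF is known to induce. Its brightest probe gave -2.51, -2.37, -2.36, -2.55 and -2.42 in Sham. It gave -2.44 to -1.78 (median -2.13) in DKD and -1.63 to -0.80 (median -1.0045) in DKD+enarodustat. All 7 treated arrays lay above all 7 DKD arrays, whereas DKD and Sham overlapped. The difference of DKD+enarodustat against DKD was 1.01 ± 0.13 (limma, adjusted p = 0.000351; n = 7 and 7), or 2.01-fold, and this was the only member whose groups did not overlap in that comparison, as held for 1.25% of all genes. DKD against Sham was 0.31 ± 0.14 (adjusted p = 0.159; 95% interval 0.01 to 0.61). DKD+enarodustat against Sham was 1.32 ± 0.14 (limma, adjusted p = 4e-06).

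The rise of Pdk1 with enarodustat kept its direction on every slide (0.70, 1.00 and 1.22) and in row 2, where 7 treated arrays met the 2 DKD arrays of that row (0.83). With row as a covariate the difference was 0.83 (adjusted p = 0.0809), so the call of this probe was lost there. It was kept with each of the 19 arrays left out in turn (0.957 to 1.095, adjusted p 0.000115 to 0.00139). Slide row and treatment can be told apart only through the 2 DKD arrays in row 2. Those arrays, replicates 2 and 4, also had the highest adipocyte marker sums of the DKD group (11.4 and 14.6, against at most 3.60 in row 1). For every gene, values of enarodustat against DKD with row as a covariate or within row 2 rest on these 2 arrays. The part of the adipocyte signal in those values was not tested.

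Pdk1 had 3 further probes, which differed in position. The brightest probe and 2 others lie close together at chr3:54319810-54322561, on the plus strand of rn4, downstream of the exon-spanning probe printed above. The exon-spanning probe read -5.15, -5.35, -5.37, -5.06 and -5.19 in Sham, -4.80 to -4.49 (median -4.67) in DKD and -3.98 to -3.54 (median -3.77) in DKD+enarodustat. The probe was dim, with a Sham mean of -5.23 beside -2.44 for the brightest Pdk1 probe, but well above background on all 19 arrays. The 3 groups stood apart in the order Sham, DKD and DKD+enarodustat with no overlap. Of 30259 probes kept, 58 (0.192%) had their groups so separated, upward or downward, and the probe was singled out after its values were seen. In a fit of all kept probes it rose by 0.57 ± 0.08 in DKD against Sham (adjusted p = 0.000101) and by a further 0.90 ± 0.07 with enarodustat (adjusted p = 1.25e-06). With row as a covariate these differences were 0.55 (adjusted p = 0.000578) and 0.86 (adjusted p = 0.00167). Within row 2 alone, with its 2 DKD arrays, the difference with enarodustat was 0.86 and was not called (adjusted p = 0.126). With normexp and quantile normalisation the differences in diabetes and with enarodustat were 0.20 (adjusted p = 0.00658) and 0.39 (adjusted p = 4.89e-05). The 2 other downstream probes differed by 0.23 and 0.17 in DKD against Sham, past the test in neither, and by 0.85 (adjusted p = 0.00481) and 0.97 (adjusted p = 0.000719) in DKD+enarodustat against DKD. With row as a covariate the latter were 0.66 (adjusted p = 0.333) and 0.73 (adjusted p = 0.16). Without that covariate all 4 probes thus rose with enarodustat, and the exon-spanning probe alone was called in diabetes. The difference between probes was not tested.

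**Figure D2:**
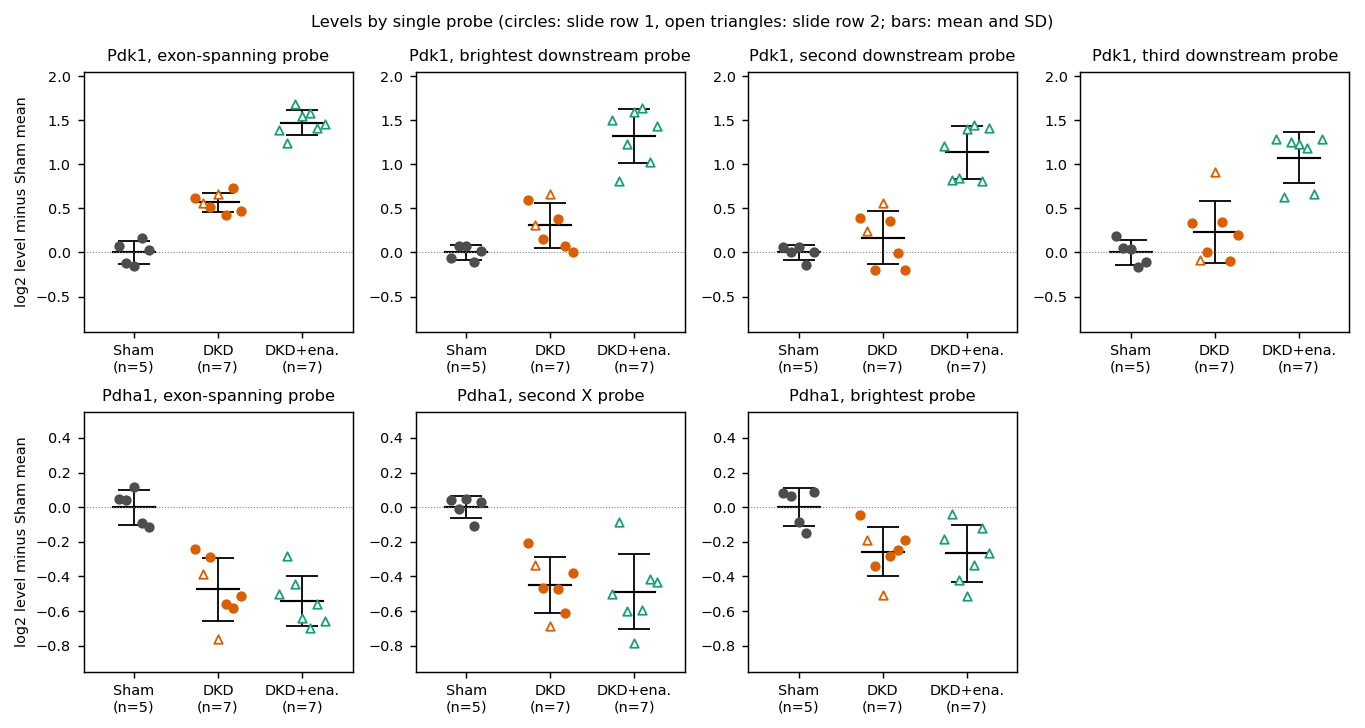
Level of each Pdk1 probe (top) and each Pdha1 probe (bottom) on each array, as log2 minus the mean of the 5 Sham arrays, with the mean and SD per group. Circles are slide row 1 and open triangles row 2. The exon-spanning Pdk1 probe separates the 3 groups, while its downstream probes overlap between Sham and DKD, and both Pdha1 probes on chromosome X lie lower in DKD than in Sham.

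Pdk3 encodes a kinase isoform known mainly from testis and brain. Its levels in Sham were -2.23, -2.25, -2.33, -2.09 and -2.38. They ran from -2.96 to -2.54 (median -2.67) in DKD and from -2.82 to -2.46 (median -2.72) in DKD+enarodustat. Both diabetic groups lay wholly below Sham and overlapped each other. Pdk3 fell by 0.44 ± 0.08 in DKD against Sham (limma, adjusted p = 0.000952), was 0.43 ± 0.08 lower in DKD+enarodustat than in Sham (adjusted p = 0.000782), and differed by 0.02 ± 0.07 between the diabetic groups (adjusted p = 0.98; 95% interval -0.14 to 0.17). Within row 1 its fall in diabetes was 0.45 (limma over all probes, adjusted p = 0.0177). A limma fit of all 3 groups without the DKD arrays of row 2 gave an adjusted p of 0.00393.

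Pdk2 encodes the most widely expressed kinase isoform. It stood at 3.28, 3.22, 3.47, 3.54 and 3.50 in Sham, at 2.87 to 3.40 (median 3.22) in DKD and at 2.83 to 3.30 (median 3.22) in DKD+enarodustat. The groups overlapped throughout. DKD against Sham was -0.20 ± 0.10 (limma, adjusted p = 0.221) and DKD+enarodustat against Sham -0.27 ± 0.10 (adjusted p = 0.0623). With the replicate number as a block these became -0.24 (adjusted p = 0.043) and -0.31 (adjusted p = 0.00872) and passed the test. With row as a covariate they were -0.17 (adjusted p = 0.408) and -0.16 (adjusted p = 0.716) in the limma fit of all probes, and did not pass. The diabetic groups differed by -0.07 ± 0.09 (adjusted p = 0.853; 95% interval -0.27 to 0.13).

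Of the phosphatases, Pdp2 fell in diabetes and Pdp1 did not pass the test. Pdp2 encodes the phosphatase isoform that insulin is known to favour and that falls in starvation and diabetes in heart and kidney. It read 3.56, 3.85, 3.58, 3.59 and 3.95 in Sham. It read 2.77 to 3.44 (median 3.23) in DKD and 2.42 to 3.35 (median 2.71) in DKD+enarodustat. Both diabetic groups lay wholly below Sham, and they overlapped each other. Pdp2 fell by 0.56 ± 0.14 in DKD against Sham (limma, adjusted p = 0.0108) and was 0.95 ± 0.14 lower in DKD+enarodustat than in Sham (adjusted p = 0.000107). Between the diabetic groups it differed by -0.39 ± 0.13 (adjusted p = 0.153; 95% interval -0.67 to -0.11), which did not pass. Its 3 probes gave -0.57, -0.56 and -0.56 in DKD against Sham, all called in the fit of all probes, and -0.40, -0.40 and -0.39 between the diabetic groups, none called. Between the diabetic groups Pdp2 did pass with slide as a block (-0.39, adjusted p = 0.0411) and in the authors' value table (-0.36, adjusted p = 0.0355), and 1 of its 3 probes passed with the replicate block (-0.40, adjusted p = 0.0252). That difference was -0.16 with row as a covariate (adjusted p = 0.884 in the fit of all probes). Within row 1 the fall in diabetes was 0.47 (limma over all probes, adjusted p = 0.0281). A limma fit of all 3 groups without the DKD arrays of row 2 gave an adjusted p of 0.0474. Pdp1, the calcium-activated phosphatase, did not pass in any comparison: it ran from -3.31 to -3.05 in Sham, from -3.28 to -2.80 in DKD and from -3.31 to -2.78 in DKD+enarodustat, with differences of 0.14 ± 0.10 (adjusted p = 0.446) and -0.07 ± 0.10 (adjusted p = 0.857; 95% interval -0.27 to 0.13). Its groups overlapped.

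Pdk3, Pdk4 and Pdp2 were the 3 members whose DKD and Sham arrays did not overlap, as held for 10.7% of all genes.

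Among the subunits, Pdha1 encodes the alpha subunit of the first enzyme, which carries the serines that the kinases phosphorylate. Its brightest probe read 3.14, 3.12, 2.97, 2.91 and 3.14 in Sham, 2.55 to 3.01 (median 2.81) in DKD and 2.55 to 3.01 (median 2.79) in DKD+enarodustat, and all groups overlapped. The difference of DKD against Sham was -0.26 ± 0.09 (limma, adjusted p = 0.0539), just outside the threshold. It passed with the replicate number as a block (-0.28, adjusted p = 0.0072). Normexp with quantile normalisation gave -0.37 (limma, adjusted p = 0.00322) and quantile normalisation alone -0.34 (adjusted p = 0.00873), which passed too. Of 39 alternatives, other probes included, 15 passed and 24 did not. With row as a covariate the difference was -0.22 (adjusted p = 0.153 in the limma fit of all probes) and did not pass. This probe is placed by the file headers at chr16:87958212-87958271 (minus strand) of rn4, whereas the other 2 Pdha1 probes are on chromosome X, so which copy of the sequence it reads is uncertain.

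The 2 probes on X gave a plainer result. The exon-spanning probe printed above read -0.76, -0.77, -0.69, -0.90 and -0.93 in Sham, and -1.57 to -1.05 in DKD, with no overlap. It fell by 0.47 ± 0.09 in DKD against Sham (limma over all probes, adjusted p = 0.00151). The other, at chrX:55911794-55911853, fell by 0.45 ± 0.10 (adjusted p = 0.0046), again with no overlap. With row as a covariate the falls were 0.44 (adjusted p = 0.00705) and 0.43 (adjusted p = 0.0166). Between the diabetic groups they differed by -0.07 (adjusted p = 0.84) and -0.04 (adjusted p = 0.946).

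Pdhb encodes the beta subunit of the first enzyme. It read 1.48, 1.77, 1.68, 1.67 and 1.51 in Sham, 1.30 to 1.74 (median 1.45) in DKD and 0.95 to 1.33 (median 1.16) in DKD+enarodustat. The treated arrays lay wholly below Sham and overlapped DKD at 1 end, since the highest treated array (1.33) passed the lowest DKD array (1.30). Pdhb fell by 0.31 ± 0.08 in DKD+enarodustat against DKD (limma, adjusted p = 0.0455), while DKD against Sham was -0.15 ± 0.08 (adjusted p = 0.269). The difference was alike on the 3 slides (-0.31, -0.31 and -0.30).

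Dld encodes the third enzyme, the lipoamide dehydrogenase that the complex shares with the other 2-oxoacid dehydrogenases and the glycine cleavage system. It read 1.94, 1.82, 1.75, 1.90 and 1.89 in Sham, 1.60 to 1.95 (median 1.70) in DKD and 1.27 to 1.63 (median 1.49) in DKD+enarodustat. Treated arrays lay wholly below Sham and overlapped DKD. Dld fell by 0.28 ± 0.07 in DKD+enarodustat against DKD (limma, adjusted p = 0.0461) and was -0.13 ± 0.08 in DKD against Sham (adjusted p = 0.296). On the 3 slides the difference between the diabetic groups was -0.27, -0.26 and -0.29.

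The calls of Pdhb and Dld with enarodustat were close to the threshold. Leaving out 1 array at a time ended the call of Pdhb in 15 of 19 cases (adjusted p up to 0.096) and that of Dld in 17 of 19 (adjusted p up to 0.101), with differences of -0.33 to -0.26 and -0.30 to -0.24. With row as a covariate the differences were -0.21 (adjusted p = 0.685) and -0.16 (adjusted p = 0.731). In the authors' value table, fitted in the same way, they were called (adjusted p = 0.0013 and 0.00292). Against Sham the treated group was lower by 0.45 ± 0.08 for Pdhb (adjusted p = 0.000665) and by 0.40 ± 0.08 for Dld (adjusted p = 0.000755), and those calls were kept with each array left out. They were lost with row as a covariate (-0.31, adjusted p = 0.265, and -0.25, adjusted p = 0.337, in the limma fit of all probes).

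Dlat encodes the second enzyme, the lipoyl acetyltransferase that forms the core. It read -0.26, -0.22, -0.42, -0.43 and -0.25 in Sham, -0.41 to -0.08 (median -0.29) in DKD and -0.63 to -0.27 (median -0.49) in DKD+enarodustat, and its groups overlapped. The differences were 0.03 ± 0.07 in DKD against Sham (limma, adjusted p = 0.838; 95% interval -0.11 to 0.18) and -0.20 ± 0.06 in DKD+enarodustat against DKD (adjusted p = 0.134). Its second, dimmer probe fell by 0.29 ± 0.07 with enarodustat (limma over all probes, adjusted p = 0.0419) and overlapped DKD as well. That call was lost with row as a covariate (-0.27, adjusted p = 0.478), within row 2 (adjusted p = 0.795) and after normexp correction (-0.24, adjusted p = 0.0567).

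Counted by probe, 8 of the 18 were called in DKD against Sham (2 higher and 6 lower; 16.9% of 30259 probes were called) and 7 of 18 in DKD+enarodustat against DKD (4 higher and 3 lower; 1.93% of probes). The 4 higher were all Pdk1 and the 3 lower were Pdhb, Dld and the second Dlat probe. Probes named for 1 gene are not counted as separate evidence.

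Set against Sham, the treated diabetic cortex showed 7 of 10 members called, where 26.1% of all genes were called (2429 higher and 3882 lower). Pdk1 and Pdk4 rose, and Pdk3, Pdp2, Pdha1, Pdhb and Dld fell. The members' median difference was -0.27, beside -0.04 over all genes, and 6 of the 10 had groups that did not overlap, against 14.4% of all genes. This contrast shares its arrays with the other 2 comparisons and lies wholly across the slide rows. With row as a covariate 2 members were called, Pdk4 (2.91, adjusted p = 0.00138) and Pdk1 (1.07, adjusted p = 0.0206). The Pdha1 call (-0.27 ± 0.09, adjusted p = 0.0324) was lost in 6 of 19 cases when 1 array was left out.

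**Figure D3:**
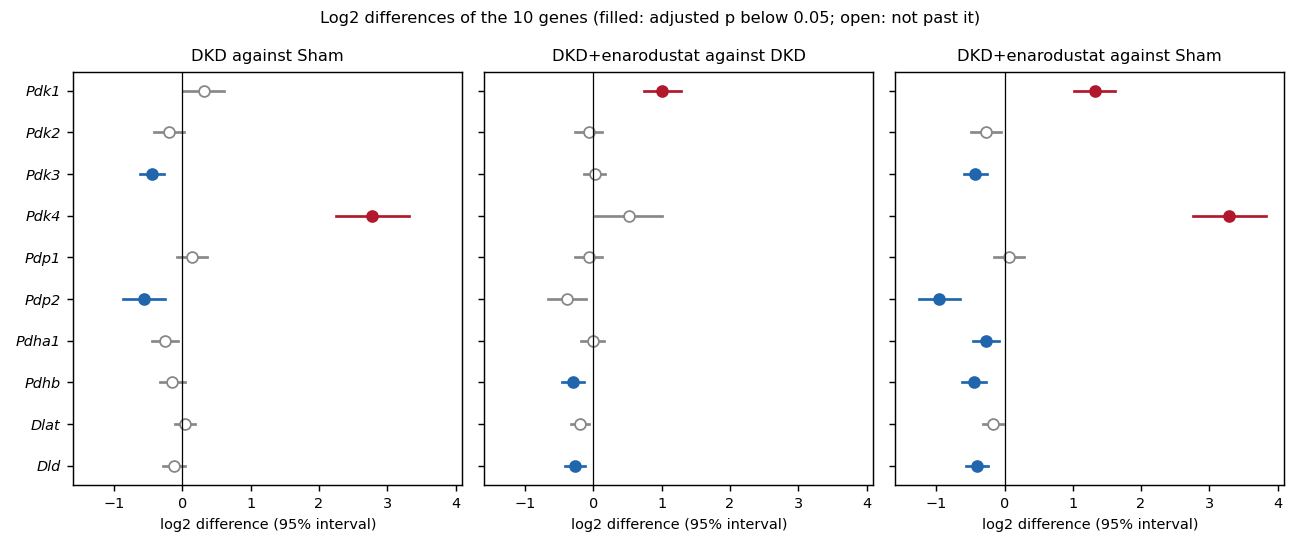
Log2 difference of each gene in the 3 comparisons, with its 95% interval. Filled points had an adjusted p below 0.05 (red higher, blue lower) and open points did not. Pdk4 stands at 2.78 in DKD against Sham, Pdk1 at 1.01 in DKD+enarodustat against DKD, and both are higher and 5 other members lower in DKD+enarodustat against Sham.

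The rest of pyruvate handling was read from a list of 32 genes, of which 30 were tested. In DKD against Sham 3 rose and 7 fell, with a list median of -0.05, where 17.1% of all genes were called and their median was -0.02. Ldha, the lactate dehydrogenase subunit that favours lactate, rose by 0.65 ± 0.09 (limma, adjusted p = 8.87e-05), and Gpt2, the mitochondrial alanine transaminase that interconverts pyruvate and alanine, by 1.98 ± 0.37 (adjusted p = 0.00108). Mpc1, a subunit of the carrier that brings pyruvate into mitochondria, fell by 0.51 ± 0.08 (adjusted p = 0.000146), and Ldhd, the D-lactate dehydrogenase, by 0.53 ± 0.09 (adjusted p = 0.000595). The list's relatives from branched-chain amino acid breakdown, the kinase Bckdk and the phosphatase Ppm1k, fell by 0.50 ± 0.11 (adjusted p = 0.00414) and 0.64 ± 0.17 (adjusted p = 0.013). Of these 10 calls 8 were kept with row as a covariate, and those of Ppm1k (adjusted p = 0.0514) and the liver-type pyruvate kinase Pklr (adjusted p = 0.0675) were lost.

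With enarodustat, 4 of the 30 rose and none fell, with a list median of -0.09, where 2.00% of all genes were called and their median was -0.02. Slc16a3, the lactate exporter MCT4, rose by 2.32 ± 0.22 (limma, adjusted p = 1.04e-05), Ldha by 1.12 ± 0.08 (adjusted p = 3.93e-07), Pkm, the muscle-type pyruvate kinase, by 0.54 ± 0.06 (adjusted p = 7.39e-05) and Ldhd by 0.35 ± 0.08 (adjusted p = 0.0389). Slc16a3, Ldha and Pkm kept their calls with row as a covariate (2.22, 1.01 and 0.60) and Ldhd did not (0.51, adjusted p = 0.0837). In DKD+enarodustat against Sham 4 of the list were higher and 8 lower, with a list median of -0.13, where 26.1% of all genes were called and their median was -0.04. Ldha was higher by 1.76 ± 0.09 (limma, adjusted p = 1.1e-09), Pkm by 0.65 ± 0.07 (adjusted p = 1.86e-06) and Slc16a3 by 2.04 ± 0.24 (adjusted p = 8.69e-06), while Mpc1 was lower by 0.58 ± 0.08 (adjusted p = 2.31e-05). Of these 12 calls 4 were kept with row as a covariate, those of Ldha, Pkm, Slc16a3 and the malic enzyme Me1, and that of Mpc1 was lost (-0.43, adjusted p = 0.0662).

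A list of 20 known regulators of the kinase genes, all tested, showed 2 higher and 4 lower in DKD against Sham (list median -0.06, beside 17.1% called and a median of -0.02 over all genes). Klf15, a fasting and glucocorticoid-responsive factor, rose by 0.48 ± 0.14 (limma, adjusted p = 0.0224), while Egln1, the main HIF prolyl hydroxylase, fell by 0.29 ± 0.07 (adjusted p = 0.007), the coactivator Ppargc1b by 0.44 ± 0.12 (adjusted p = 0.0216) and the HIF partner Arnt by 0.31 ± 0.09 (adjusted p = 0.029). Klf15, Egln1 and Irs2 kept their calls with row as a covariate, while Ppargc1b (adjusted p = 0.074), Nr3c1 (adjusted p = 0.0923) and Arnt (adjusted p = 0.0729) did not. With enarodustat 2 rose and none fell (list median 7e-04, beside 2.00% called and a median of -0.02 over all genes): Egln3, a HIF-induced prolyl hydroxylase, by 0.84 ± 0.16 (adjusted p = 0.00667) and Egln1 by 0.39 ± 0.06 (adjusted p = 0.00164). Egln1 kept its call with row as a covariate (0.45, adjusted p = 0.0494) and Egln3 did not (0.53, adjusted p = 0.512). In DKD+enarodustat against Sham 2 were higher and 6 lower (list median 6e-04, beside 26.1% called and a median of -0.04 over all genes). Ppara, the nuclear receptor known to drive Pdk4 in fasting, was higher by 0.82 ± 0.20 (adjusted p = 0.00475) and Irs2 by 0.73 ± 0.20 (adjusted p = 0.0132), while Ppargc1b was lower by 0.70 ± 0.12 (adjusted p = 0.000474) and the glucocorticoid receptor Nr3c1 by 0.34 ± 0.06 (adjusted p = 0.000521). Of these 8 calls Ppara alone was kept with row as a covariate (1.38, adjusted p = 0.0186).

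Over the 19 arrays, the named genes whose levels ran most like those of Pdk1, out of 14585 compared, were Ldha (Pearson r 0.909), Aldoc (0.906), Mgarp (0.894), Gapdh (0.885) and Plod1 (0.885). Their own differences in DKD+enarodustat against DKD were 1.12, 1.54, 3.70, 0.42 and 0.59. Those most like Pdk4 were Fbp2 (0.971), Selenbp1 (0.955), Angptl4 (0.943), Naa80 (0.943) and Acot7 (0.942). Their differences in DKD against Sham were 1.81, 1.08, 3.63, 1.02 and 0.90. The 2 sets had no gene in common. These correlations are descriptions over arrays that share slides and groups, so they carry the differences between groups as well as the spread within them.

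**Figure D4:**
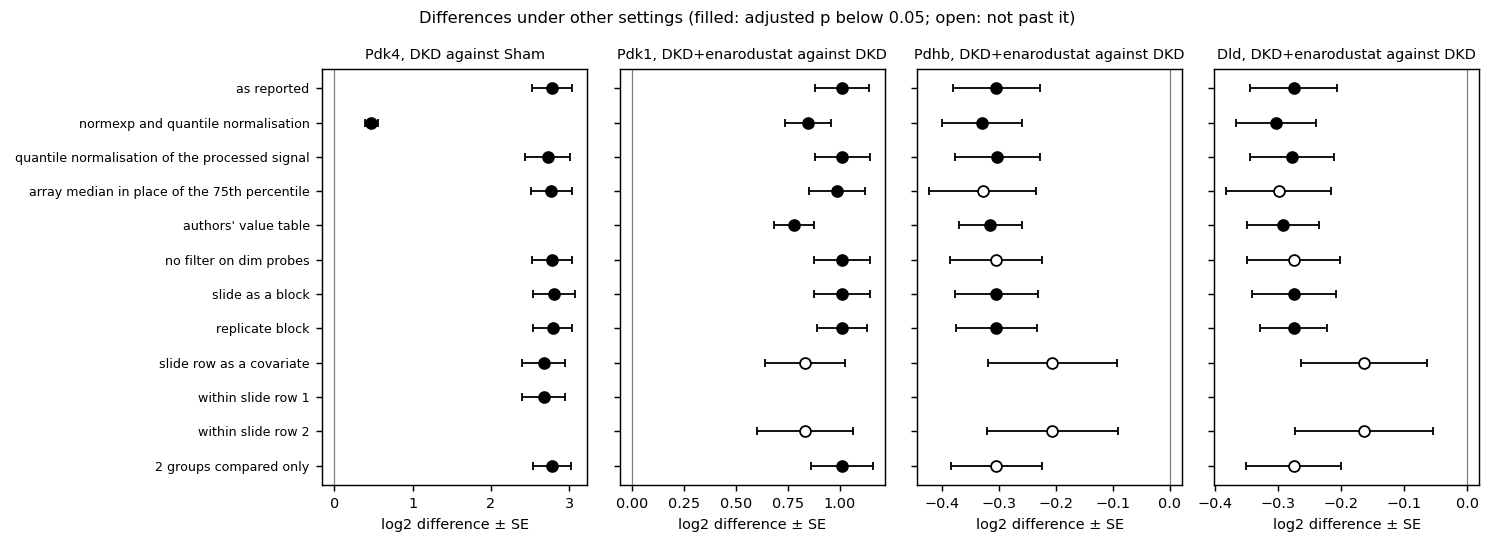
Log2 difference ± SE of Pdk4 in DKD against Sham and of Pdk1, Pdhb and Dld in DKD+enarodustat against DKD, as reported and under other settings; filled points had an adjusted p below 0.05. Pdk4 keeps its call and is smaller (0.47) after normexp and quantile normalisation, Pdk1 loses its call with slide row as a covariate and within row 2, and Pdhb and Dld lose theirs in several settings.

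Cell type markers moved beside the falls in Pdp2, Pdk3 and Pdha1. Of 9 proximal tubule markers 6 fell and 1 rose in DKD against Sham (median -0.38), and of 5 thick ascending limb markers 3 fell and none rose (median -0.76). Of 6 collecting duct markers 2 rose and none fell (median 0.0036), and their sums were 36.9 to 46.2 in Sham and 49.95 to 60.9 in DKD, with no overlap. The 2 that rose, Aqp2 (0.61) and Aqp3 (0.36), weigh most in those sums. The rest were not called: Atp6v1b1 (-0.31), Avpr2 (-0.13), Foxi1 (-3e-04) and Scnn1g (0.0075). Of 5 podocyte markers 2 fell and none rose. Of 9 proximal tubule markers none passed in DKD+enarodustat against DKD (median -0.0047), where Pdhb and Dld fell. Summed leukocyte markers were 18.3 to 23.5 in Sham, 24.0 to 39.1 in DKD and 25.9 to 55.04 in DKD+enarodustat. With row as a covariate 5 of the 7 proximal tubule calls in DKD against Sham were kept. So were all 3 of the thick ascending limb, 1 of 2 of the collecting duct (Aqp2) and both of the podocyte. In DKD+enarodustat against DKD 1 proximal tubule marker was called with that covariate. The part of the cell makeup in these results was not tested.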

How the data were processed

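Per the file headers, the deposited Cy3 intensities were background-subtracted and detrended within arrays by Agilent Feature Extraction (version 11.5.1.1). The log2 value table that the authors deposited holds values for 22739 probes; their scaling is not given in the sources used here, the submitters' processing notes name limma, and these values were used only as an alternative, for 9 of the 10 members. Each array held 62976 spots. Processed intensities were put on the log2 scale, scaled by subtracting the 75th percentile of the array, and averaged over a probe's spots, outlier spots left out. A probe was kept if well above background on at least 5 of 19 arrays, and the brightest kept probe stood for a gene. All 3 groups entered 1 limma fit (version 3.58.1; R 4.3.3; 16 residual degrees of freedom; Benjamini-Hochberg over 24217 genes; two-sided); the script was tested on simulated data. All members are described, and of each list up to 4 called genes with the smallest adjusted p per comparison; Bckdk and Ppm1k were added after their values were seen. The members and lists were chosen with earlier results of these data known. The labels do not say more of the replicates than that each is 1 rat of a group. Same-numbered arrays of different groups shared a slide, and their deviations correlated in all 17 pairs (r 0.132 to 0.595, median 0.228). Different-numbered arrays of 1 slide did so in 20 of 22 pairs at r over 0.1 (median 0.253). The number was also fitted as a block. Precision is limited by the number of arrays. The share of probes well above background was 61% to 66.8% in Sham, 54.7% to 67.3% in DKD and 54.4% to 62.9% in DKD+enarodustat. The 2 DKD arrays of row 2 had 57.6% and 54.7%, below the DKD arrays of row 1 (62.5% to 67.3%). Alternatives were other scalings, filters, probes, slide, row and replicate terms and leaving out each array. The row covariate for list genes and the floor for the Sham levels of Pdk4 were added after seeing the data.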

Additional observations from a re-analysis of the deposited data

How the results depend on the processing

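Pdk3, Pdk4 and Pdp2 in DKD against Sham, and Pdk1 in DKD+enarodustat against DKD, kept their direction in every alternative run, and, by the probe that stood for the gene, their calls except within single slides and, for Pdk1, with row as a covariate and within row 2. For DKD against Sham, 6 members were called with normexp and quantile normalisation, 5 in the authors' value table (without Pdk4), 5 with slide as a block, 5 with the replicate number as a block (Pdk2 and Pdha1 added) and 0 within slides 1, 2 and 3, where limma gave 3 members each at an unadjusted p below 0.05; slide 3 held 1 Sham array, whose spread is assumed to be like that of the other groups, and genes called within slides were 0, 2 and 142, with 4218, 3646 and 3386 at an unadjusted p below 0.05. For DKD+enarodustat against DKD, 1 member was called with array medians, 1 without a filter, 1 with 2 groups fitted alone, 5 in the authors' table, and 0 with row as a covariate, within row 2 and within slides (limma, unadjusted p below 0.05: 1, 1 and 2, 1, 4); genes called were 291, 284, 276, 1775, 84, 12 and 1, 0, 0 (1712, 1880 and 2619 unadjusted), and 915 with slide as a block. For DKD+enarodustat against Sham, row as a covariate left 2 members and 1031 genes, slides 0, 0 and 1 members (unadjusted 3, 7 and 6) and 14, 46 and 338 genes, and no filter gave 10744 genes. The replicate block also called Pdk2 in that comparison and changed no other member's call. Leaving out each array gave 3 to 4, 1 to 3 and 6 to 8 members and 3156 to 4339, 286 to 497 and 5175 to 6513 genes; without DKD replicate 6, 286 genes were called for DKD+enarodustat against DKD. Sign changes were confined to differences near 0 that were not called. For Pdk3 between the diabetic groups the value was -0.0056 with normexp, -0.0081 with array medians, -0.0087 with row as a covariate and within row 2, -0.1554 on slide 2 and -0.0274 to 0.0422 with arrays left out. Pdk2 there gave 0.0067 with row and within row 2 and 0.0155 on slide 3, and Pdha1 gave 0.0798 with row and within row 2, 0.0073 on slide 1 and -0.0522 to 0.0297 with arrays left out. Against Sham, Pdp1 gave -0.0735 and -0.0526 in the treated group on slides 1 and 2 and -0.0331 in DKD on slide 2, and Dlat gave -0.0608 in DKD on slide 3 and -0.002 to 0.0565 with arrays left out. The cause of these changes was not tested. Of the genes called in DKD against Sham 46.9% were higher, against 34.7% with normexp and quantile normalisation, 37% with quantile normalisation alone and 38.3% in the authors' table; for DKD+enarodustat against DKD it was 53.4% against 34.3% in the authors' table. Single probes, added after seeing the data, called Pdk1 and Pdha1 in DKD against Sham and Dlat with enarodustat. Within slides, 1 to 3 arrays per group limit what can be called, and Pdk4 lies near background in Sham.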
